A study of Mus musculus with 8 samples.

Results

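The Vk genes that lie farthest from the Jk genes were followed in pro-B cells of control and Setd2 knockout mice. They are the IGKV genes whose name carries a number of 93 or higher after its last hyphen, with IGKV14-126 left out, and they number 37 of the 135 light-chain V genes with a read. Of the 135 genes, 133 are kappa and 2 are lambda genes. Names numbered 50 to 92 form a middle stretch of 38 genes, names numbered 1 to 49 a nearest stretch of 48 genes, and 10 kappa genes with other names or left out by the rule belong to no stretch.

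RNA came from pro-B cells sorted from bone marrow of mice aged 8 weeks, with a gate on B220 and Cd43 that left out cells with IgM or CD25. The 4 controls and 4 Setd2 knockouts were untreated and shared the same sequencing batch. Setd2 encodes the methyltransferase that places the trimethyl mark on lysine 36 of histone H3. The labels give no Cre driver, strain or allele and name no animal behind a sample, so the p-values measure only how these samples vary, and part of that may be technical. No value of the Setd2 transcript was used here, and the deletion is known from the labels alone.

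A kappa light chain is made by joining a Vk gene to a Jk gene with the RAG recombinase. A Vk gene that points the same way as the Jk genes is joined by deletion of the DNA between them, and a Vk gene that points the other way is joined by inversion. A joined Vk gene can be replaced by a second joining of an upstream Vk gene to a Jk gene further downstream, and pro-B cells are the stage before most kappa joining takes place.

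The members lie on chromosome 6 (build mm10), from 1986 kb to 3166 kb upstream of IGKJ1 and over a span of 1181 kb. All 37 overlap a gene of the same name in the GENCODE M21 annotation, which calls 28 V genes and 9 pseudogenes. On the strand of the Jk genes lie 29 of the 37 members, against 1 of 38 middle genes and 16 of 48 nearest genes. The 8 members on the other strand include IGKV10-96, IGKV10-94, IGKV19-93 and IGKV1-131.

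The 3′ ends of the germline coding sequences are the part that stays in the junction, and they show which members a short read can tell apart. Each line gives the last 60 bases from GENCODE M21 transcripts, with capitals from the codon of the conserved cysteine that opens the CDR3, the junction loop of the chain.
IGKV1-110: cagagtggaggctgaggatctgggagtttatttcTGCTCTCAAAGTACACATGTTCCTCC
IGKV1-117: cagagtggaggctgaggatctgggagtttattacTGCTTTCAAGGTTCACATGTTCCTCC
IGKV1-135: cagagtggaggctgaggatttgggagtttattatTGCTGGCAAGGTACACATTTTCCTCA
IGKV1-99: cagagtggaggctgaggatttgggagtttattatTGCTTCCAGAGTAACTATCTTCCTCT
IGKV10-96: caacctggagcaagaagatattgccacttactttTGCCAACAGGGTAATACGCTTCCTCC
IGKV10-94: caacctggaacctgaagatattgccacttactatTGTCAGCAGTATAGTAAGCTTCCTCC
IGKV14-111: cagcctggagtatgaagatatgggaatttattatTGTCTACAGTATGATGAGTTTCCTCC
IGKV9-120: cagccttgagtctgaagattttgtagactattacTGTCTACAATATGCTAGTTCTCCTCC
IGKV17-127: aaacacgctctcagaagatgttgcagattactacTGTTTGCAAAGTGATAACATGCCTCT
IGKV2-112: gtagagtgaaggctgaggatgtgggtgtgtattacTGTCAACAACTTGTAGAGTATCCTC
IGKV11-125: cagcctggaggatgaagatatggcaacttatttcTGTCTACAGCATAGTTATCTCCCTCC
The ends of IGKV10-94 and IGKV10-95 are the same in all 60 bases. IGKV1-117 and IGKV1-110, the members with the most reads in controls, differ at 4 bases, and IGKV1-117 and IGKV1-99 differ at 11. IGKV17-127 and IGKV17-121 differ at 2 bases. An aligner can place a read of such near copies on either, and the values of single members are uncertain to that extent.

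Reads on the light-chain locus were between 84230 and 118807 per control and between 5956 and 144978 per knockout, and light V reads between 39816 and 57300 and between 2085 and 75449. Knockout 3 was the shallowest sample, with 604 reads on the members against 10748 to 26848 in the other knockouts and 14377 to 23144 in controls. Knockout 4 stood apart by its V genes, with 8.89% of light V reads on the nearest stretch and 45.8% on the middle stretch. Markers of later B-lineage cells differed in part between the groups. Switched constant regions held 51.0% to 57.6% of heavy constant reads in controls and 6.69% to 44.2% in knockouts. The unswitched region IGHM held 41.4% to 48.0% and 55.4% to 92.7%. IGHD, also unswitched, did not follow IGHM: it overlapped, at 0.651% to 0.977% and 0.467% to 0.759%. IGHG genes together held 20.8% to 35.5% and 2.66% to 14.9%, but IGHA overlapped, at 17.1% to 33.3% and 4.02% to 34.1%. IGHG3 had 481 reads in knockout 1 and at most 76 in a control. IGKC overlapped as a share of light-chain locus reads, at 46.9% to 50.6% and 43.2% to 50.2%. The lambda constant genes (IGLC) did not. Together they had 1545, 1865, 1730 and 1276 reads in controls 1 to 4, of 98997, 118807, 84230 and 114613 locus reads. In knockouts 1 to 4 they had 1545, 1199, 867 and 3511, of 62130, 51809, 5956 and 144978. In proportion to locus reads, IGLC was higher in every knockout than in every control. Of the 13 marker genes, 12 had reads in every sample, and IGHG2A was listed in none. The part of later B-lineage cells in the values of the members was not tested. Genes that mark pro-B cells outside the immunoglobulin loci were not analysed here. Fewer cells that use a gene and less RNA per cell cannot be told apart in these bulk samples.

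The share of light V reads held by all members together overlapped between the groups. It was 39.4%, 40.4%, 36.1% and 39.9% over controls 1 to 4, and 39.1%, 47.6%, 29.0% and 35.6% over knockouts 1 to 4. The knockouts lay on both sides of the controls and spread more widely. The means were 38.96% ± 1.94 and 37.8% ± 7.75 (SD, n = 4 each), a difference of -1.16 percentage points (exact two-sided permutation p = 0.743). Differences from -11.4 to 11.45 percentage points are not rejected by this test, so shifts within that range are not excluded. The test was 1 of 11 on summed readouts, for which the smallest unadjusted p between groups is 0.0286 by exact permutation; no adjusted p of the 11 was under 0.05.

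Set against the other stretches, the log2 ratio of member reads to nearest reads was -0.03 ± 0.13 in controls and 0.47 ± 1.18 in knockouts (SD, n = 4, exact permutation p = 0.514). It was between -0.12 and 0.16 in controls, and between -0.80 and 2.002 in knockouts, with knockout 4 highest. The log2 ratio to middle reads was 1.33 ± 0.25 and 0.94 ± 0.94 (SD, n = 4, exact permutation p = 0.571).

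**Figure D1:**
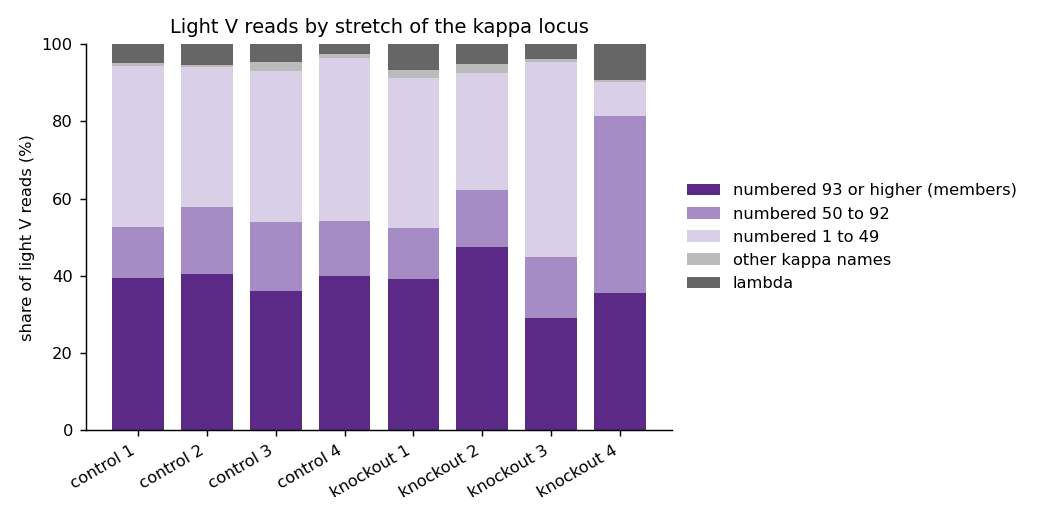
Share of light V reads in percent (y axis) on each stretch of the kappa locus and on lambda genes, as stacked bars for the 4 control and 4 knockout samples (x axis). The dark purple share of the members is 36.1% to 40.4% in controls and 29.0% to 47.6% in knockouts, while the nearest stretch shrinks to 8.89% in knockout 4.

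The share was carried by a few genes. By V family, which groups genes of similar sequence, IGKV1 members held 18.3% of light V reads in controls on average (range 14.99% to 21.7%) and 19.9% in knockouts (10.2% to 29.4%). IGKV10 members held 8.56% (7.48% to 9.85%) and 7.85% (2.69% to 12.5%). IGKV14 members held 2.68% (2.54% to 2.998%) and 1.17% (0.256% to 2.48%), and every knockout was below every control. Of the 11 families, IGKV11 was the only other with that order, with controls at 0.0404% or more and knockouts at 0.0145% or less. The gene IGKV11-125 held 130 of the 132 reads of that family. No family was tested. These are shares of reads, not divided by the length of a segment.

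IGKV1-110, a V gene 2451 kb from IGKJ1 (68270527 to 68271265, plus strand), was the member with the highest mean share in controls. Its share was 7.31%, 7.85%, 5.37% and 9.93% in controls and 15.5%, 4.31%, 3.41% and 20.6% in knockouts. Knockouts 1 and 4 were above all controls and knockouts 2 and 3 below all of them. In knockout 4 the gene held 57.8% of the reads of the members, and in knockout 1 39.7%. The edgeR log2 fold change was 0.53 (SE 0.60, adjusted p = 0.604). It was 0.027 without knockout 4, 1.98 with TMM scaling and 1.83 with DESeq2, and passed in none of these.

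IGKV1-117 (68121091 to 68121825, plus strand) was the next by mean share. It held 7.94%, 5.04%, 5.66% and 7.59% in controls and 5.95%, 9.89%, 4.51% and 8.74% in knockouts. The groups overlapped, with a log2 fold change of 0.15 (SE 0.47, edgeR adjusted p = 0.859) that was 1.27 with TMM scaling and 1.23 with DESeq2. IGKV10-96 (68631965 to 68632430, minus strand) is joined by inversion. Its share was 4.95%, 7.69%, 6.59% and 4.73% in controls and 4.38%, 9.71%, 6.28% and 1.83% in knockouts, again overlapping.

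IGKV1-135, near the far end of the locus at 3112 kb from IGKJ1 (67609745 to 67610508, plus strand), had the smallest relative spread in controls of the 12 members shown by sample. It held 3.19%, 2.93%, 3.03% and 3.05% in controls and 0.291%, 2.79%, 1.10% and 0.0411% in knockouts. Every knockout was below every control, knockout 2 by a small margin. The edgeR log2 fold change was -1.53 (SE 0.94, adjusted p = 0.404), so the difference did not pass the test. It was -2.78 without knockout 2 (adjusted p = 0.0953 by edgeR), -1.12 without knockout 4 and -0.88 with DESeq2. IGKV1-131, at 2956 kb on the minus strand, also had all 4 knockouts below all controls, at 0.00398% to 0.299% against 0.309% to 0.375%.

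IGKV14-111 held 2.36%, 2.51%, 2.56% and 1.80% in controls and 0.625%, 2.40%, 0.911% and 0.133% in knockouts, with knockout 2 inside the range of the controls. IGKV9-120 held 1.69%, 1.90%, 2.65% and 0.581% in controls and 0.647%, 5.02%, 0.863% and 0.0119% in knockouts, so that knockout 2 was the highest and knockout 4 the lowest of all samples. IGKV10-94 held between 1.97% and 2.64% in controls and between 0.789% and 3.65% in knockouts, and IGKV17-127 from 1.01% to 1.86% and from 0.556% to 1.41%. None of these groups were separate. Their log2 fold changes were -1.18, -0.05, -0.21 and -0.47, with edgeR adjusted p-values of 0.419, 0.972, 0.859 and 0.675. For IGKV14-111 the value was -2.09 without knockout 2, -0.81 without knockout 4, -0.66 with TMM and -0.46 with DESeq2.

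The lowest p-values belonged to members with few reads in the knockouts. IGKV1-99 (68541658 to 68542422, plus strand) had 146, 224, 25 and 58 reads in controls and 0, 3, 0 and 5 in knockouts. These are shares of 0.328%, 0.391%, 0.0628% and 0.102% in controls, and at most 0.0128% in knockouts. The log2 fold change was -5.12 (SE 1.22) with an edgeR adjusted p of 0.0844, the lowest of the members, which did not pass 0.05.

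IGKV2-112 (68219981 to 68220705, plus strand) had 110, 304, 37 and 89 reads in controls and 3, 5, 0 and 0 in knockouts. Its log2 fold change was -4.76 (SE 1.29, edgeR adjusted p = 0.0929). With DESeq2 as the test, IGKV1-99 and IGKV2-112 were called lower in knockouts, both at an adjusted p of 0.00710 and with log2 fold changes of -3.98 and -3.94. They are the only 2 members DESeq2 called.

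IGKV11-125 had 18, 43, 34 and 28 reads in controls and 4, 2, 0 and 1 in knockouts, with a log2 fold change of -3.08 (SE 0.97, edgeR adjusted p = 0.107). IGKV1-132 had 2, 1, 1 and 8 reads in controls and 0 in every knockout. With reads pooled over each group, its control share was 2.59 times the limit of 3 counts that 0 knockout reads allow. This ratio ignores the spread between samples, and 8 of the 12 control reads came from control 4. The difference did not pass the test (edgeR adjusted p = 0.139). In knockout 3 all 4 of these genes were at 0 reads of 2085 light V reads, which allows a share of up to 0.144% (3 counts).

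**Figure D2:**
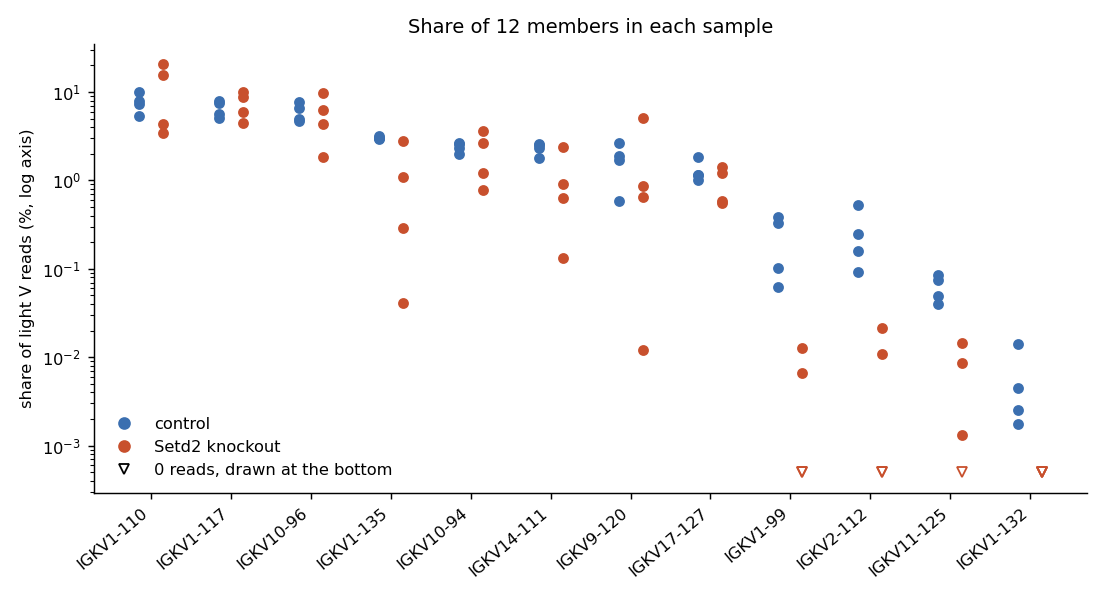
Share of light V reads in percent on a log axis (y axis) for 12 members (x axis), with 1 point per sample, blue for control and red for knockout, and open triangles at the bottom for samples with 0 reads. Knockout points of IGKV1-99, IGKV2-112 and IGKV11-125 lie below all control points, and those of IGKV1-110 lie on both sides.

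Of the 37 members, 29 had at least 10 reads in all samples together and entered the test, and the other 8 were pseudogenes with at most 6 reads. edgeR called 0 of the 29 at an adjusted p under 0.05, as it called 0 of all 113 light V genes tested (0.0% called). At an unadjusted p under 0.05, 6 members were lower in knockouts (20.7%) and 0 were higher, against 15.9% lower and 2.65% higher over all 113 genes. That split of 18 lower and 3 higher genes rests on the scaling: with TMM it was 11 lower and 15 higher (5 and 1 for members), and with DESeq2 9 and 15 (4 and 3 for members). DESeq2 called 2 members lower and 0 higher, where 3.19% of the 94 genes with an adjusted p were called lower and 6.38% higher.

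By shares, 8 members had every knockout below every control, or 27.6% of the 29 tested, where 19.5% of the 113 genes did. They were IGKV1-131, IGKV1-132, IGKV1-135, IGKV1-99, IGKV11-125, IGKV14-130, IGKV2-109 and IGKV2-112. A sample with 0 reads counted as below, whatever its depth. In knockout 3, with 2085 light V reads, IGKV1-132, IGKV1-99, IGKV11-125, IGKV14-130 and IGKV2-112 had 0 reads. In 0 members was every knockout above every control, and 0.885% of all genes had that order. These shares of lower members are near those of all light V genes. The median log2 fold change was -0.21 over the 29 members and -0.64 over all 113 genes. Setting IGKV1-132, at 0 reads in knockouts, to its bound leaves the members' median at -0.21. It was -0.07 over 36 middle genes and -1.08 over 43 nearest genes, with TMM 0.96 and -0.27, and with DESeq2 1.02 and -0.18.

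These values rest on the scaling and the tool. With library sizes from all V reads, 19 members were fitted below 0 and 10 above, and with TMM scaling 13 were below and 16 above, as with DESeq2, which differs from edgeR in its model as well as its size factors. TMM scaling moved the median of all 113 genes from -0.64 to 0.15 and that of the members to 0.38, and with DESeq2 the medians were 0.21 and 0.47. The members' median was above that of all genes by each of the 3. For IGKV10-96, IGKV10-94, IGKV9-120 and IGKV17-127 the sign turned with TMM and with DESeq2, so no direction is given for them.

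**Figure D3:**
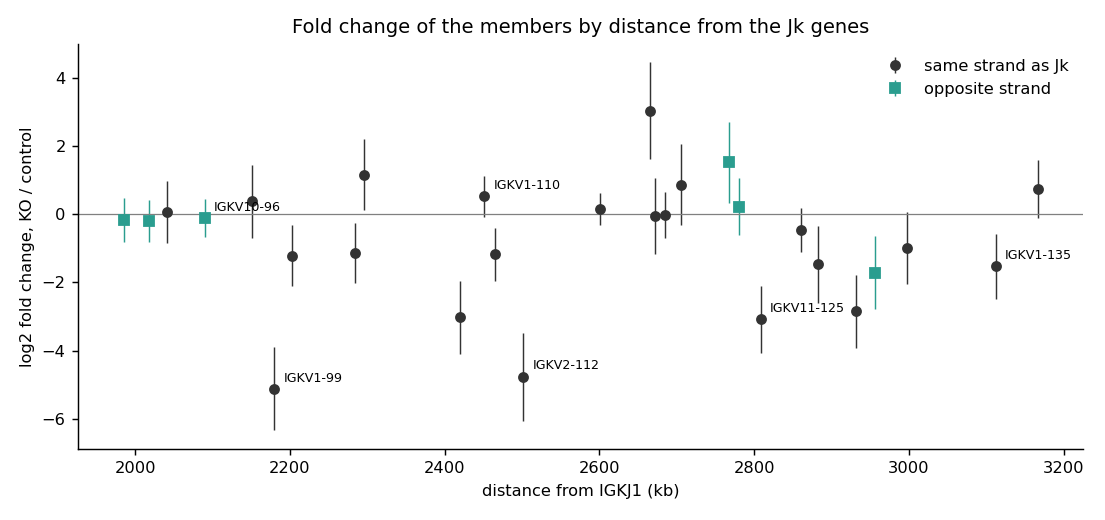
edgeR log2 fold change of knockout over control (y axis, bars are SE) by distance from IGKJ1 in kb (x axis) for the tested members with reads in a knockout, with circles for the strand of the Jk genes and squares for the other strand. IGKV1-99 at 2180 kb and IGKV2-112 at 2502 kb lie lowest.

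The split of the members by strand overlapped between the groups. Members on the strand of the Jk genes held 73.1% ± 2.89 of the members' reads in controls and 74.8% ± 13.03 in knockouts (SD, n = 4, exact permutation p = 0.800). At the inner edge of the members, IGKV19-93 held 1.12% in controls and 0.992% in knockouts on average. Just outside, IGKV4-92 held 0.00544% and 0.00438%, and IGKV4-91 0.544% and 0.158%. IGKV14-126, left out by the rule, held 0.332% ± 0.159 and 0.495% ± 0.914 (SD, n = 4 each).

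How evenly the members were used was measured by the effective number of genes, the number of equally used genes that would give the same Shannon diversity. It was 12.4 ± 0.640 in controls and 8.77 ± 3.90 in knockouts (SD, n = 4), with 3.77 in knockout 4, where IGKV1-110 led (exact permutation p = 0.0571, adjusted p = 0.157 over the 11 readouts). The difference of -3.64 genes was -1.97 without knockout 4 and -4.83 without knockout 3, the latter with an exact permutation p of 0.0286. Reads were found for 36 members in at least 1 control and for 33 in at least 1 knockout, and 21 members had reads in all 8 samples. At an equal depth of 604 member reads, 24.1 ± 0.636 members were seen in controls and 19.4 ± 3.53 in knockouts (SD, n = 4). The lowest control stood at 23.4 and the highest knockout at 22.0. This was the smallest p the design allows (exact permutation p = 0.0286), and the adjusted p of 0.105 did not pass. The difference of -4.61 members was -2.79 without knockout 3 and -2.90 without knockout 4. Without any 1 control, the exact permutation p was 0.0571 to 0.0857.

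Assembled contigs show the joined genes directly. Of 2928 complete kappa contigs, 837 listed only genes that the naming rule takes in, 565 of them a single gene and 272 several. The rule takes in IGKV1-115, which is not among the 37 members. A list of IGKV1-115, IGKV1-117 and IGKV1-99 held 59 of the 837, and 1 more contig listed IGKV1-110 as well. These 837 contigs numbered 158, 175, 144 and 180 in controls and 42, 50, 18 and 70 in knockouts. Every knockout was below every control, a log2 difference of -1.99 (exact permutation p = 0.0286, adjusted p = 0.105 over the 11 readouts), and in proportion to locus reads the difference was -0.68 (exact permutation p = 0.314). As a share of kappa contigs they made up 28.3% ± 2.28 in controls and 29.6% ± 4.17 in knockouts (SD, n = 4, exact permutation p = 0.657). The smallest sample, knockout 3, had 23.7% (95% Wilson interval 15.5 to 34.4). Such intervals cover counting error only.

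IGKV1-110 made up 12.7%, 16.6%, 13.9% and 21.1% of these contigs over controls 1 to 4, and 31.0%, 12%, 11.1% and 30% over knockouts 1 to 4, again with knockouts 1 and 4 above all controls. Lists of several genes were in part resolved by the germline ends shown above. Of the 58 contigs listing IGKV1-117 and IGKV1-99, 51 matched the IGKV1-117 end furthest, 2 the IGKV1-99 end, and 5 matched both equally. Of the 59 that listed IGKV1-115 as well, 45 matched IGKV1-117 furthest and 11 IGKV1-99. Over both lists, 13 of 117 contigs opened with at least 12 bases of the IGKV1-99 end, 6 in control 1 and 7 in control 2. In the other controls and in the 28 contigs of the knockouts there were 0. That count was looked for after the read counts of IGKV1-99 were seen, and it comes from the same libraries.

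The junctions that stood out are shown with capitals for the bases that match the germline V end, followed by bases of the junction and the Jk gene. The first was found in all 8 samples, the next was the largest contig of the members in knockout 1, the third in knockout 4, the fourth in knockout 2, and the last is an IGKV1-99 junction of control 1.
IGKV1-117 with IGKJ4: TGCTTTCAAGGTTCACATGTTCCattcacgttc
IGKV10-96 with IGKJ1: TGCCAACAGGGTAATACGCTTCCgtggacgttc
IGKV1-110 with IGKJ2: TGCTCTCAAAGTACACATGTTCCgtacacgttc
IGKV10-96 with IGKJ2: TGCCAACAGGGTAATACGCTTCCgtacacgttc
IGKV1-99 with IGKJ4: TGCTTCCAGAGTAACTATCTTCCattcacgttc
The IGKV10-96 and IGKJ1 junction had 77 reads, or 28.7% of the reads of the members' contigs in knockout 1. It was found in 7 of 8 samples and was also the largest in control 1, with 18 reads (2.95%). The IGKV1-110 and IGKJ2 junction had 52 reads, or 12.4%, in knockout 4, and the IGKV10-96 and IGKJ2 junction had 32 reads, or 12.6%, in knockout 2.

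Most junctions were found once. The 837 contigs held 644 distinct CDR3 sequences, of which 549 were in 1 sample, 95 in at least 2 and 29 in at least 4, and 55 were in both groups. A CDR3 of 9 amino acids between its anchors was present in 731 of the 837 (87.3%), with a range of 85.1% to 88.9% in controls and 77.8% to 96% in knockouts. Other kappa contigs had that length at 83.6% to 87.6% and 76.4% to 89.7%. Of contigs that list IGKV19-93 alone, 8 of 32 (25.0%) had 9 amino acids and the median length was 8.

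The Jk gene joined to a member was then compared, because IGKJ4 and IGKJ5 lie downstream and can be used by a second joining. Whether a contig came from a first or a second joining was not tested. Of the 837 contigs, 831 named a single Jk gene, and 0 named IGKJ3, which is known to be nonfunctional. The Jk calls were not always the same for the same CDR3 sequence. An IGKV1-110 CDR3 was called IGKJ2 in some contigs and IGKJ4 in others, and a CDR3 listing IGKV17-127 IGKJ2 or IGKJ5. How many contigs this touches was not counted, and the Jk shares are uncertain to that extent. Contigs of the members carried IGKJ4 or IGKJ5 at 31.6%, 24.1%, 30.6% and 30% over controls 1 to 4, and at 33.3%, 20.4%, 33.3% and 21.7% over knockouts 1 to 4. The means were 29.1% ± 3.36 and 27.2% ± 7.10 (SD, n = 4, exact permutation p = 0.714), and differences from -11.2 to 9.15 percentage points are not rejected.

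Other kappa contigs were all complete kappa contigs not given to the members. Of these, 507 listed a gene that the naming rule takes in together with genes outside it. Other kappa contigs carried IGKJ4 or IGKJ5 at 44.4%, 33.3%, 34.9% and 40.6% in controls and at 37.9%, 25.5%, 43.1% and 47.7% in knockouts. In 8 of 8 samples the members were below them, by 10.3 percentage points on average (SD 7.07). The exact sign-flip permutation p was 0.0078, the smallest it can give with 8 samples, and the adjusted p was 0.0859 over the 11 readouts, which did not pass. The difference between members and others was -9.21 ± 3.59 in controls and -11.4 ± 10.04 in knockouts (SD, n = 4, exact permutation p = 0.8286). Against the nearest stretch alone the difference was -10.5 percentage points (exact p = 0.0234), and against the middle stretch alone -6.15 (exact p = 0.164). Both were added after seeing the data, and the order did not hold in every sample. In knockout 2 the members stood at 20.4%, above the nearest stretch (13.3%) and the middle stretch (17.6%). They were also above the middle stretch in knockout 3 (33.3% against 25%) and control 3 (30.6% against 27.9%). In every other sample the members were below both stretches.

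By single Jk gene, IGKJ2 made up 40.7% of contigs of the members and 32.6% of the others, as means over 8 samples, and was above in 7 of 8. IGKJ1 made up 31.2% and 28.9%. These shares carry the uncertainty of the Jk calls given above. IGKJ4 made up 9.24% and 13.6%, below in 7 of 8 samples, and IGKJ5 18.9% and 24.8%, below in 6 of 8. With exact sign-flip permutation tests adjusted over these 4 genes, also added after seeing the data, p was 0.0833 for IGKJ2, IGKJ4 and IGKJ5 and 0.578 for IGKJ1.

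**Figure D4:**
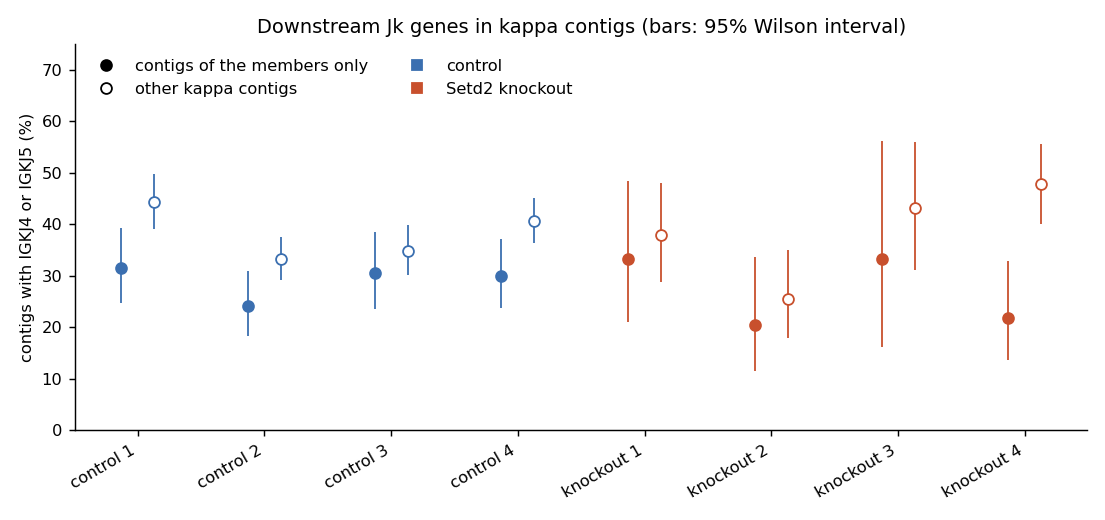
Share of kappa contigs with IGKJ4 or IGKJ5 in percent (y axis) in each sample (x axis), with filled points for contigs of the members, open points for other kappa contigs, blue for control, red for knockout, and bars for 95% Wilson intervals. The filled point is below the open one in 8 of 8 samples, by the most in knockout 4 at 21.7% against 47.7%.

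The members differed among themselves in their Jk genes, given here over all samples and without a test. Contigs of members on the strand of the Jk genes carried IGKJ4 or IGKJ5 in 166 of 492 cases (33.7%), and those of members on the other strand in 27 of 178 (15.2%). The latter were contigs of only 2 genes, IGKV10-96, with 22 of 146, and IGKV19-93, with 5 of 32, since the lists of the other members on that strand mixed both strands or had no contig of their own. Lists that mixed both strands, or that held IGKV1-115, to which no strand was assigned, were left out of this split. Among these, contigs listing IGKV1-115, IGKV1-117 and IGKV1-99 carried IGKJ4 or IGKJ5 in 17 of 58 cases. The share on the other strand was the lower one in 6 of 8 samples, and the higher one in knockouts 3 and 4. Contigs of the nearest stretch stood at 335 of 849 (39.5%) and those of the middle stretch at 90 of 254 (35.4%). Among members on the strand of the Jk genes, IGKV17-121 or IGKV17-127 stood at 23 of 43, IGKV16-104 at 14 of 28, IGKV14-111 at 28 of 63, IGKV1-135 at 25 of 71 and IGKV1-110 at 39 of 149. Contigs of 1 sample share a library, and contigs that recur between samples were counted in each.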

How the data were processed

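Poly-A RNA of 8 samples was sequenced with single-end reads of 75 bases, per the labels' protocols. Reads were aligned with STAR 2.5.1 to mm10, per the submitters' processing notes, and immunoglobulin segments were assembled with TRUST, per the series design text, whose version was not given in the sources used here. The authors deposited, per sample, read counts per light-chain segment and a list of assembled contigs with their read counts, with no normalization. Annotation, strand and germline ends came from GENCODE M21 (GRCm38).

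Shares are reads of a gene over all light V reads. A contig was complete when its CDR3 was in frame from the cysteine to the closing phenylalanine or tryptophan, and was given to the members when all genes it listed were members. Counts of 113 light V genes with at least 10 reads entered edgeR 4.0.16 (R 4.3.3) and its quasi-likelihood test, with total V reads as library size, no further scaling and Benjamini-Hochberg adjustment over the 113 genes at 0.05. DESeq2 1.42.0 was an alternative, and 19 genes without a DESeq2 adjusted p were left out of its counts. Summed readouts were compared by exact permutation over 70 arrangements of the samples, two-sided, and adjusted over 11 readouts. The edgeR fit was tried on simulated counts that had the same dispersion for every gene. Python 3.11.15, numpy 2.4.6, pandas 2.3.3, scipy 1.17.1 and matplotlib 3.10.9 were used.

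Genes with per-sample values were the 8 members of highest mean share in controls and the members of lowest p up to 12 in all; IGKV1-131 and the genes at the edge of the members were added after their values were seen. The members, lists and tests were chosen with earlier results of these data known. Alternatives were other scalings, filters and contig rules, fits without each sample in turn, and a block on the replicate number. Control 3 has contig read counts far above those of the other samples, so contigs were counted, not their reads. Same-numbered samples were not paired by the labels.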

Additional observations from a re-analysis of the deposited data

Results flagged for a closer look

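With 4 samples a group, a sample far from the other 3 was looked for in 44 sets of values, and 3 were found; chance flags about 1 in 20. In controls, the log2 ratio of member reads to nearest reads of control 2 was 0.16, apart from the other 3 controls. In knockouts, the IGKV9-120 share of knockout 2 was 5.02% of light V reads. In controls, the IGKV17-127 share of control 1 was 1.86% of light V reads.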

How the results depend on the processing

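Depth limits knockout 3 most, which has 604 reads and 18 contigs of the members. The cause of each change below was not tested.

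Leaving out each sample in turn gave differences of -4.42 to 1.79 percentage points for the share of V reads, -0.13 to 3.16 for the share of contigs, -3.92 to 0.39 for downstream Jk genes and -4.42 to 2.73 for their difference from other contigs between groups. It gave -0.017 to 0.92 and -0.64 to 0.045 for the log2 ratios to nearest and middle reads, -4.83 to -1.97 for the effective number of genes, -5.29 to -2.79 for members seen at equal reads and -3.61 to 6.32 percentage points for the share by strand. The log2 fold change ran from -0.034 to 0.32 for IGKV1-117, -0.53 to 0.18 for IGKV10-96, -0.62 to 0.066 for IGKV10-94 and -1.80 to 0.37 for IGKV9-120, while 0 members were called by edgeR with any 1 sample left out.

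With TMM and DESeq2 the log2 fold change was 0.54 and 0.66 for IGKV10-96, 0.38 and 0.47 for IGKV10-94, 0.39 and 0.69 for IGKV9-120 and 0.30 and 0.35 for IGKV17-127. DESeq2 called 2 members in place of 0. The contig share differed by -2.84 points with any listed member enough, 3.71 weighted by reads and 3.27 within 1 stretch, against 1.21. The share of V reads differed by -4.49 points without IGKV1-110, and downstream Jk genes by -9.09 weighted by reads. The number of contigs in proportion to locus reads differed, on the log2 scale, by -0.68.

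Same-numbered samples correlated at -0.07 to 0.12 in their deviations, with 2 of 4 pairs above 0.1. Of the 4 controls and 4 knockouts, 1 of each correlated best with its own number. With only 4 pairs this cannot tell whether same-numbered samples are paired, which the labels do not say. With the replicate number as a block, edgeR called 0 members, and the differences of -1.99 in log2 contig number, -4.61 members at equal reads and -10.3 points in downstream Jk genes all had the smallest exact p possible there, 0.125.

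Alternatives chosen after seeing the data left out knockout 3 and control 3, which gave 0.84 points for the share of V reads and 0.45 for the log2 fold change of IGKV9-120. The Jk difference was -6.15 points against middle contigs and -5.95 for IGKJ5 alone, and between groups it was 1.02 against nearest contigs and 2.33 for IGKJ4 alone.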
